A study of Panax ginseng with 12 samples.

Results

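DEAD-box RNA helicases are enzymes that use ATP to unwind or remodel short stretches of RNA and RNA-protein complexes, and they carry the Asp-Glu-Ala-Asp motif in their ATP-binding core. Plants have a large family of them: nucleolar members work on ribosomal RNA, members sent to plastids and mitochondria work on organelle introns and ribosomes, and others act in splicing, mRNA export, translation and mRNA storage. Low temperature stabilises RNA secondary structure, and in Arabidopsis the mRNA export helicase LOS4 (RH38) and the nucleolar helicase RH7 are known from mutants with altered growth or tolerance in the cold.

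The helicases described here were all rows of a deposited expression table whose best Swiss-Prot match is named as a DEAD-box ATP-dependent RNA helicase, a text rule that used no measured value. It took 90 of 44953 rows. The table covers embryogenic calli of Panax ginseng, cultured cell masses able to form somatic embryos. The cold calli were held at 5 °C and the control calli at 20 °C, and total RNA was sequenced after 2, 4 and 6 days, with 2 libraries for each of the 6 combinations and 12 in all. The labels name no genotype or cultivar and do not say that the replicates were separate cultures, so the p-values may measure only technical spread between these libraries.

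Each row is a gene of a Trinity assembly, given by its identifier without the leading TRINITY_. The names RH3, RH7 and so on are those of the matched Swiss-Prot protein, which was from Arabidopsis for 70 rows, from rice for 18 and from another species for 2. The 90 rows shared 53 Swiss-Prot proteins and 42 helicase numbers, and 21 of the proteins were matched by 2 or more rows, 58 rows together. Such rows can be pieces, alleles or copies of a gene, and how reads were divided between them is unknown. The rows were 208 to 3648 bases long (median 1190), and 14 were under 500 bases. The eIF4A translation factors are DEAD-box proteins too but carry another name in Swiss-Prot, and their 12 rows are given among the related lists at the end.

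Values are TPM, in which a row's share of all transcripts is scaled by its length, so levels of whole transcripts can be compared between rows. Rows that are pieces of the same transcript would each stand for it. Sums over rows, as given below, may therefore count a transcript more than once. TPM does not keep the number of reads, so library depth is unknown and counting error cannot be stated. The table summed to between 873298 and 929555 TPM per library, and the median row had 6.5 to 8.59 TPM, the highest in cold day 2 replicate 3. Of the marker genes set for embryogenic callus, rows matching SERK1, SERK2, WOX2, WOX9 and the Brassica protein BBM2 were present, and no row carried LEC1, LEC2, FUS3, ABI3, AGL15 or WUS as its symbol. Summed over 9 rows, these markers had 207.8 to 264.8 TPM in cold libraries and 223.7 to 318.8 TPM in control libraries. By the rule given below, 1 row was called higher and 1 lower (22.2%), beside 23.3% of all rows. Markers set for xylem had 1 of 16 rows called higher and 3 lower (25%), and those for epidermis 3 of 13 higher and 1 lower (30.8%). The single seed storage row was not called. In bulk RNA, fewer cells of a type and less RNA per cell cannot be told apart, which holds for every value below.

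As a family the helicases were abundant and their differences were small. All 90 rows passed the low filter, and their median level was 19.8 TPM, beside 7.49 TPM over all 44600 rows tested and 12.7 TPM over the other rows with a Swiss-Prot match. Their summed level was 2444 ± 205 TPM in cold calli and 2542 ± 182.5 TPM in control calli (SD, n = 6 each), and the arms overlapped, with 2115 to 2659 TPM in cold and 2205 to 2699 TPM in control libraries. Differences below are on the log2(TPM + 1) scale, cold minus control, averaged over the 3 days. A row is called where its Benjamini-Hochberg adjusted p from limma, over all rows tested, was under 0.05. A difference of 2-fold or more was found in 2 helicase rows (2.22%), beside 19.5% of all rows and 13.7% of the other rows with a Swiss-Prot match. The median size of the difference, sign ignored, was 0.29 for the helicases, 0.50 for all rows and 0.43 for the others with a Swiss-Prot match, with median standard errors of 0.19, 0.28 and 0.23.

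Cold calli had 4 helicase rows called higher and 6 called lower, while 80 were not called. The 10 called rows are 11.1% of the family. The background for the same call was 23.3% of all rows tested, 11.3% higher and 12% lower, and it was 24.6% among the other rows with a Swiss-Prot match. Signed differences were balanced, with 42 positive and 48 negative rows and a median of -0.02, beside -0.05 over all rows. Another scaling between libraries, by median ratios, turned the family median to 0.03 and gave 8 rows higher and 4 lower. Added to the higher rows were RH53 DN20571_c0_g2, RH22 DN31791_c1_g3, PL10B DN31700_c0_g4 and RH3 DN34860_c1_g1. Rows RH7 DN33987_c0_g1 and RH26 DN19620_c0_g4 were no longer called lower. The median over all rows moved upward as well, to -0.003. Among all rows 5820 were then called higher and 4892 lower, beside 5050 and 5334 in the main fit. All 6 cold libraries lay above all 6 control libraries in 3 helicase rows (3.33%) and below them in 0 rows, where the background was 3.27% above and 3.84% below, 7.11% together. A further 13 rows had adjusted p between 0.05 and 0.1, 7 with a higher and 6 with a lower level in the cold.

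**Figure D1:**
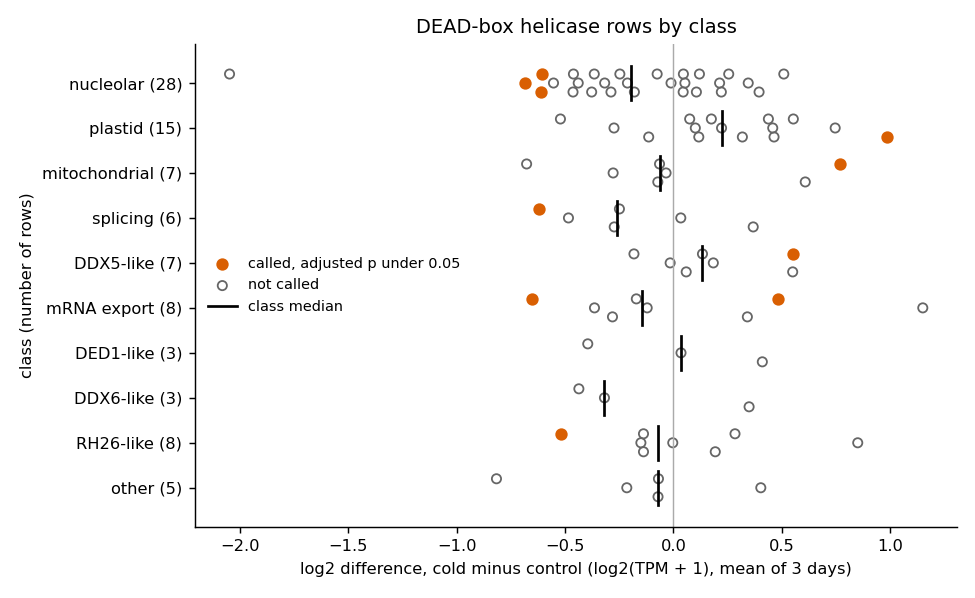
Log2 difference, cold minus control, for each of the 90 helicase rows (points), grouped by class of function, with the class median as a bar and called rows filled. Plastid rows lie mostly right of 0 (12 of 15), nucleolar rows mostly left of it (17 of 28), and the 10 called rows spread over 7 of the classes. Of the plastid rows, 7 match the Arabidopsis RH3, all of them positive, and can be pieces or copies of the same gene.

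Among the nucleolar helicases, which process ribosomal RNA and build ribosomes, 3 of 28 rows fell in the cold and none was called higher, beside 12% and 11.3% of all rows. The class had a median difference of -0.20, with 11 positive and 17 negative rows, and the median kept its sign under both other scalings. Its summed level was 925 ± 114 TPM in cold calli and 1111 ± 125 TPM in control calli (SD, n = 6 each). The libraries overlapped, with 771 to 1067 TPM in cold and 954 to 1237 TPM in control. Of the class sum, the 3 rows matching Arabidopsis RH7 held 282 TPM in cold and 426 TPM in control calli on average.

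The most abundant helicase row of the table, DN33987_c0_g1, was only 223 bases long and matched RH7. In Arabidopsis RH7 is a nucleolar helicase that takes part in pre-rRNA processing and is needed for normal growth in the cold. Row DN33987_c0_g1 had 118 and 165 TPM at day 2, 200.2 and 148 TPM at day 4, and 128 and 153 TPM at day 6 in cold calli. The control calli had 199 and 280.0 TPM at day 2, 197 and 298 TPM at day 4, and 229 and 191 TPM at day 6. A single cold library, day 4 replicate 1, reached into the control range. The row fell by 0.61 (SE 0.20; limma, Benjamini-Hochberg adjusted p = 0.0464). Both other scalings lost the call (limma, adjusted p = 0.0755 by median ratios and 0.061 by quantile normalization). The call was kept when cold day 2 replicate 3, control day 2 replicate 1 or control day 4 replicate 1 was left out, and was lost without any one of the other 9 libraries (adjusted p up to 0.129).

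The second RH7 row called, DN12088_c0_g1 of 593 bases, had 39.3, 58.3, 76.9, 69.4, 41.9 and 54.0 TPM in the cold libraries in order of day, and 88.3, 129, 74.2, 96.5, 99.04 and 61.3 TPM in the control libraries. The low controls, day 4 replicate 1 and day 6 replicate 3, lay among the higher cold libraries. It fell by 0.68 (SE 0.20; limma, adjusted p = 0.0281), and this call was kept in 5 of 12 fits that each left out 1 library, with adjusted p up to 0.0834 in the others. The longest row, DN33987_c1_g1 of 2396 bases, had 60.5 to 85.4 TPM in cold and 85.3 to 145 TPM in control libraries, which overlapped by less than 1 TPM, and was not called (-0.46, SE 0.17; limma, adjusted p = 0.0644). Summed, the 3 rows of the Arabidopsis RH7 match had 282 ± 51.3 TPM in cold calli and 426 ± 84.9 TPM in control calli (SD, n = 6 each). The 223-base row alone held 152 TPM of this sum in cold and 232.5 TPM in control calli on average. A fit on rows summed by Swiss-Prot match called this sum lower, by -0.59 (SE 0.18; limma, adjusted p = 0.0365). A separate row, DN21082_c0_g1, whose best match is the spinach RH7, had 53.9 to 73.0 TPM in cold and 47.3 to 66.2 TPM in control libraries and was not called (0.22, SE 0.15; limma, adjusted p = 0.284).

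RH36, needed in Arabidopsis for 18S rRNA maturation and for divisions of the female gametophyte, fell in row DN34215_c1_g1 of 481 bases. Cold libraries had 8.76 and 10.7 TPM at day 2, 14.3 and 11.5 TPM at day 4, and 15.9 and 13.3 TPM at day 6. Control libraries had 25.97 and 18.95 TPM, then 20.8 and 18.4 TPM, then 17.6 and 14.9 TPM on the same days. Only cold day 6 replicate 2 lay above the lowest control library, and the arms were farthest apart at day 2. The difference was -0.61 (SE 0.17; limma, adjusted p = 0.0252), with -1.12 at day 2, -0.57 at day 4 and -0.14 at day 6. The call was kept in 5 of 12 fits without 1 library, with adjusted p up to 0.0764 in the others. The other RH36 row, DN21193_c0_g2, was not called (-0.21, SE 0.19; limma, adjusted p = 0.444), nor was the sum of both (-0.45, SE 0.16; adjusted p = 0.0559).

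The remaining nucleolar rows were not called. RH29, related to the yeast ribosome assembly factor Dbp10, was matched by 5 rows that pointed both ways. The short row DN24282_c0_g5 of 302 bases had 17.7, 12.8, 1.46, 4.13, 0.57 and 65.4 TPM in the cold libraries and 61.7, 18.2, 111, 48.1, 5.39 and 39.1 TPM in the control libraries. Its levels varied more than 10-fold within each arm, and its difference, -2.05, was the most negative of the family but came with an SE of 0.80 (limma, adjusted p = 0.0834). A longer RH29 row, DN27045_c0_g3 of 1777 bases, stood at 0.40 (SE 0.20; adjusted p = 0.172), and the sum of the 5 rows at -0.04 (SE 0.24; adjusted p = 0.926). RH57, related to the yeast pre-rRNA helicase Rok1, had the highest positive value of the class, 0.51 (SE 0.23; adjusted p = 0.13).

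**Figure D2:**
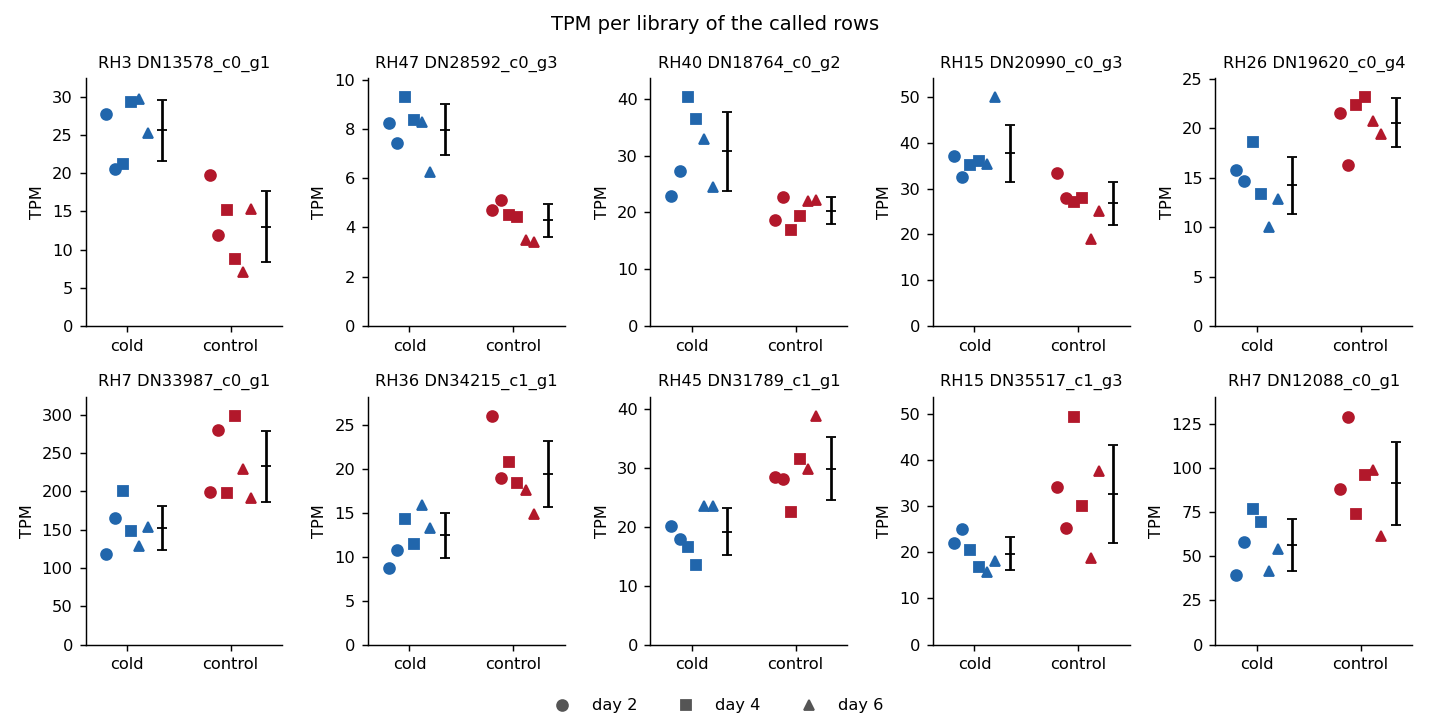
TPM of the 10 called helicase rows in each library, cold left and control right in every panel, with marker shape for the day and the mean and SD of the 6 libraries of an arm as a bar; each panel has its own axis starting at 0. Arms are fully apart for RH3 DN13578_c0_g1, RH47 DN28592_c0_g3 and RH40 DN18764_c0_g2 and overlap for the other 7 rows.

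The plastid helicases, which splice chloroplast introns and build the chloroplast ribosome, had 1 of 15 rows called higher in the cold and none lower, beside 11.3% and 12% of all rows. Their median difference was 0.22, with 12 positive and 3 negative rows, and it stayed positive under both other scalings. Many of these rows match helicase RH3. The Arabidopsis RH3 was matched by 7 rows, all positive, the rice RH3 by 1 positive and 1 negative row, and the sunflower RH3 by 1 positive row. Such rows can be pieces or copies of the same gene, so the signs are not independent. The class summed to 269.9 ± 33.8 TPM in cold calli and 217 ± 35.9 TPM in control calli (SD, n = 6 each). The ranges overlapped, at 238 to 322 TPM in cold and 173 to 265 TPM in control libraries. Summed over 36 rows, photosystem, antenna and Rubisco small subunit genes, the markers set for photosynthetic cells, had 232 to 315 TPM in cold and 288 to 355 TPM in control libraries. Of these markers 6 rows were called higher and 2 lower (22.2%, beside 23.3% of all rows), and their part in the plastid helicase values was not tested.

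RH3, in Arabidopsis a chloroplast helicase for group II intron splicing and assembly of the large ribosomal subunit, gave the largest called difference of the family. Its row DN13578_c0_g1 of 591 bases had 27.7 and 20.6 TPM at day 2, 21.2 and 29.3 TPM at day 4, and 29.7 and 25.2 TPM at day 6 in cold calli. Control calli had 19.8 and 11.9 TPM at day 2, 15.2 and 8.76 TPM at day 4, and 7.12 and 15.3 TPM at day 6. All 6 cold libraries lay above all 6 control libraries. The row rose by 0.98 (SE 0.24; limma, adjusted p = 0.0146), which was also the lowest adjusted p of the family. The call was lost only without cold day 4 replicate 2, at adjusted p = 0.0507, among the 12 fits that left out 1 library.

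All 7 rows matching the Arabidopsis RH3 had positive differences, with values of 0.075 to 0.98. The most abundant, DN25813_c0_g2 of 301 bases, had 50.2 to 80.8 TPM in cold libraries and 24.3 to 61.1 TPM in control libraries. Control day 2 replicate 1, at 61.1 TPM, and control day 6 replicate 3, at 58.2 TPM, lay among the cold libraries, and the row was not called (0.55, SE 0.23; limma, adjusted p = 0.0954). Leaving out 1 library at a time moved its difference between 0.34 and 0.77. The 7 rows summed to 173 ± 24.3 TPM in cold calli and 122 ± 27.1 TPM in control calli (SD, n = 6 each), a difference of 0.52 (SE 0.18; limma, adjusted p = 0.0529). The rice RH3 match went the other way in row DN34860_c0_g1, which at 309 bases had the most negative value of the class, -0.52 (SE 0.21; adjusted p = 0.094), with 4.85 and 8.0 TPM in the day 6 cold libraries and 16.9 and 13.7 TPM in the day 6 control libraries. RH22, needed in Arabidopsis for the large chloroplast ribosomal subunit and matched here by the rice protein, stood at 0.46 (SE 0.17; adjusted p = 0.0754). The 2 rows of RH39, which in Arabidopsis acts on chloroplast 23S rRNA, stood at -0.27 and -0.11.

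**Figure D3:**
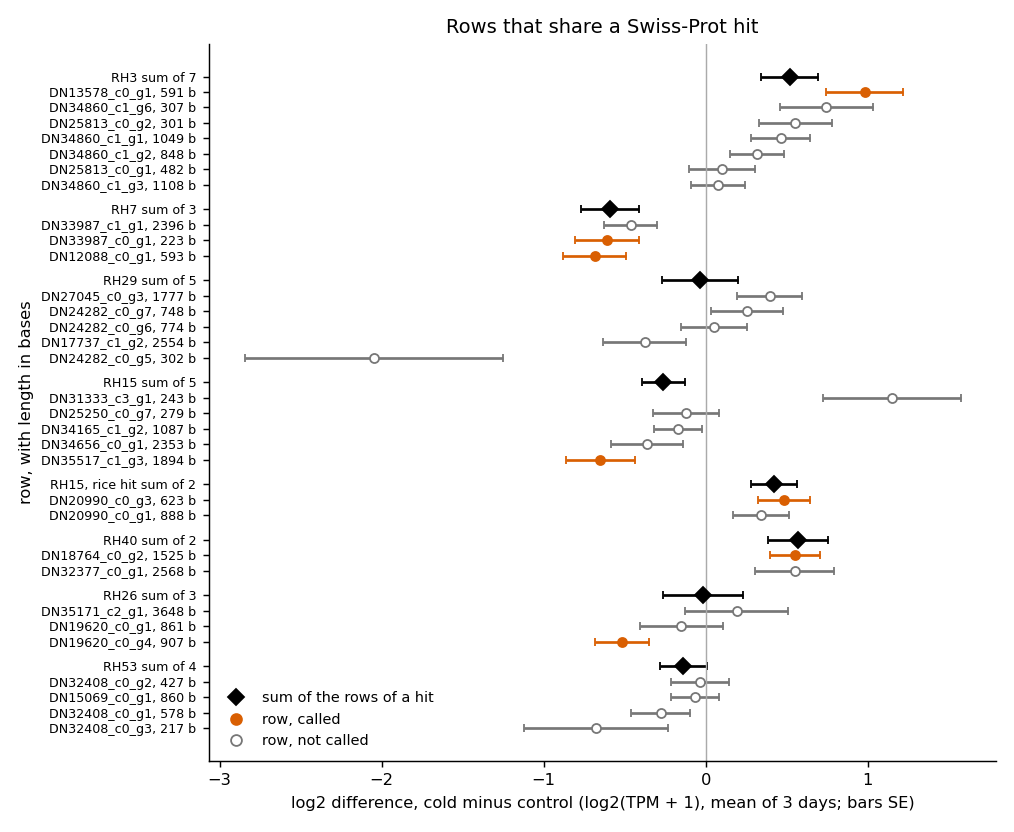
Log2 differences, cold minus control, of rows that share a Swiss-Prot match (circles, filled where called) and of their summed TPM (diamonds), with standard errors, for 8 matches; labels give each row's length in bases. The 7 RH3 rows all lie right of 0 and the 3 RH7 rows all left of it, while rows of RH29, RH15 and RH26 lie on both sides.

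The mitochondrial helicases had 1 of 7 rows called higher (14.3%) and none lower, beside 11.3% and 12% of all rows, with a median of -0.06. They summed to 195.3 ± 14.8 TPM in cold calli and 189.6 ± 18.3 TPM in control calli (SD, n = 6 each), a gap smaller than either spread. The called row matched RH47, a mitochondrial helicase also known in Arabidopsis as ISE1 for its effect on transport through plasmodesmata. Its row, DN28592_c0_g3 of 2286 bases, had 8.25 and 7.42 TPM at day 2, 9.28 and 8.36 TPM at day 4, and 8.27 and 6.27 TPM at day 6 in cold calli. The control calli had 4.73 and 5.12 TPM, then 4.51 and 4.42 TPM, then 3.50 and 3.43 TPM on the same days. Every cold library lay above every control library, on a low level. The row rose by 0.77 (SE 0.19; limma, adjusted p = 0.0164), and among the 12 fits that left out 1 library the call was lost without cold day 6 replicate 2, at adjusted p = 0.0524.

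RH53, known in Arabidopsis as PMH2 and needed there for splicing of mitochondrial group II introns, accounted for the other 6 mitochondrial rows. Row DN20571_c0_g2, matching the rice protein, had 30.8 to 55.9 TPM in cold and 14.2 to 37.5 TPM in control libraries and just missed the call (0.61, SE 0.20; limma, adjusted p = 0.0517). The most abundant, DN32408_c0_g4, also matching rice, had 38.6 to 53.8 TPM in cold and 45.04 to 53.5 TPM in control libraries. Its difference of -0.07 (SE 0.15; adjusted p = 0.747) took the other sign without cold day 2 replicate 3. The 4 rows matching the Arabidopsis protein were all negative, and their sum stood at -0.14 (SE 0.15; adjusted p = 0.513).

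Helicases of the spliceosome had 1 of 6 rows called lower (16.7%) and none higher, beside 12% and 11.3% of all rows, with a median of -0.26. RH45 is related to yeast Prp5, which opens the branch site for the U2 particle. Its row, DN31789_c1_g1 of 3580 bases, had 20.1 and 18 TPM at day 2, 16.6 and 13.5 TPM at day 4, and 23.7 and 23.5 TPM at day 6 in cold calli. In control calli it had 28.5 and 28.1 TPM at day 2, 22.5 and 31.6 TPM at day 4, and 29.9 and 38.9 TPM at day 6. Only control day 4 replicate 1 fell within the cold range. The row fell by 0.62 (SE 0.16; limma, adjusted p = 0.0194). The call was lost without cold day 4 replicate 2 (adjusted p = 0.0616) or control day 4 replicate 2 (adjusted p = 0.059). The most abundant row of the class, RH21 DN35652_c3_g1, related to yeast Prp28, had 32.5 to 59.4 TPM in cold and 48.5 to 63.0 TPM in control libraries and was not called (-0.27, SE 0.15; adjusted p = 0.187). The class summed to 129 ± 21.3 TPM in cold calli and 149 ± 13.3 TPM in control calli (SD, n = 6 each).

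Helicases related to human DDX5, a nuclear protein of transcription and splicing, had 1 of 7 rows called higher (14.3%) and none lower, beside 11.3% and 12% of all rows, with a median of 0.13. RH40 row DN18764_c0_g2 of 1525 bases had 22.9 and 27.2 TPM at day 2, 40.3 and 36.5 TPM at day 4, and 32.9 and 24.5 TPM at day 6 in cold calli. It had 18.7 and 22.7 TPM at day 2, 16.9 and 19.4 TPM at day 4, and 22.1 and 22.2 TPM at day 6 in control calli. The arms did not overlap, although the lowest cold library was within 1 TPM of the highest control library. The row rose by 0.55 (SE 0.16; limma, adjusted p = 0.0267), and the call was kept in 5 of 12 fits without 1 library, with adjusted p up to 0.0792 in the others.

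The second RH40 row, DN32377_c0_g1, was more abundant and was not called. It had 139 and 99.4 TPM at day 2, 86.5 and 88.9 TPM at day 4, and 44.8 and 31.03 TPM at day 6 in cold calli, against 66.1 and 27.9 TPM, 63.3 and 58.9 TPM, and 32.8 and 64.3 TPM in control calli. The cold libraries lay above the controls of their day at days 2 and 4 but not at day 6. Daily differences were 1.43, 0.52 and -0.29, and the test that the 3 daily differences are equal gave an adjusted p of 0.519 (limma, Benjamini-Hochberg), the lowest of the family. The mean difference was 0.55 (SE 0.25; limma, adjusted p = 0.123), and leaving out 1 library at a time moved it between 0.35 and 0.75. Both rows summed to 112 ± 38.7 TPM in cold calli and 72.5 ± 15.7 TPM in control calli (SD, n = 6 each), and the sum was called higher (0.57, SE 0.19; limma, adjusted p = 0.047).

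Among mRNA export helicases 1 of 8 rows rose and 1 fell, both matching helicase 15, the plant counterpart of human UAP56, which couples splicing to mRNA export. The 2 rows are 25% of the class, near the 23.3% called over all rows. The rising row, DN20990_c0_g3 of 623 bases, matched the rice protein AIP2, known in rice for binding a regulator of tapetum cell death. It had 37.1, 32.5, 35.3, 35.95, 35.4 and 49.96 TPM in the cold libraries in order of day and 33.4, 27.9, 27.1, 28.1, 19.1 and 25.2 TPM in the control libraries. Only control day 2 replicate 1 lay within the cold range. The rise was 0.48 (SE 0.16; limma, adjusted p = 0.0483), and among the fits without 1 library the call was kept only without control day 6 replicate 3, with adjusted p up to 0.107 in the other 11.

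The falling row, DN35517_c1_g3 of 1894 bases, matched the Arabidopsis RH15. Its cold libraries had 22.2, 25.1, 20.6, 16.9, 15.7 and 18.1 TPM and its control libraries 34.3, 25.4, 49.5, 30.01, 18.7 and 37.8 TPM in order of day. Control day 6 replicate 2 lay within the cold range, and the controls spread more widely than the cold libraries. It fell by 0.65 (SE 0.21; limma, adjusted p = 0.0464), a call kept only without control day 4 replicate 2 or control day 6 replicate 2, with adjusted p up to 0.117 without the other libraries. The most abundant RH15 row, DN34165_c1_g2, had 58.3 to 92.6 TPM in cold and 68.2 to 84.8 TPM in control libraries and was not called (-0.17, SE 0.15; adjusted p = 0.421). The 243-base row DN31333_c3_g1 had the most positive value of the family, 1.15 (SE 0.43; adjusted p = 0.0704), at 0.55 to 7.08 TPM in cold libraries and at most 0.60 TPM in control libraries, 3 of which were listed at 0. The sum of the 5 Arabidopsis RH15 rows stood at -0.26 (SE 0.13; adjusted p = 0.171) and that of both AIP2 rows at 0.42 (SE 0.14; adjusted p = 0.0523).

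RH38, the Arabidopsis LOS4 helicase of mRNA export that is known for its part in chilling tolerance, was matched by 1 row, DN31373_c0_g4. Cold libraries had 41.02, 37.4, 55.5, 44.6, 49.2 and 43.7 TPM and control libraries 43.4, 56.0, 54.8, 60.6, 72.9 and 45.8 TPM in order of day. The arms overlapped widely, and the row was not called (-0.28, SE 0.17; limma, adjusted p = 0.238).

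RH26, RH25, RH31 and RH48 are close relatives for which no role is claimed here. Of their 8 rows 1 fell (12.5%, beside 12% of all rows), RH26 DN19620_c0_g4 of 907 bases. It had 15.8, 14.6, 18.6, 13.4, 10.01 and 12.9 TPM in the cold libraries and 21.6, 16.3, 22.4, 23.2, 20.8 and 19.4 TPM in the control libraries in order of day. Cold day 4 replicate 1 lay above the lowest control library, day 2 replicate 3. It fell by 0.52 (SE 0.17; limma, adjusted p = 0.0446), a call kept only without cold day 6 replicate 3 or control day 2 replicate 3, with adjusted p up to 0.126 without the others. The other RH26 rows stood at -0.15 and 0.19, and the sum of the 3 at -0.02 (SE 0.25; adjusted p = 0.971).

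RH25 DN21799_c1_g1 was the third most abundant helicase row and spread widely in both arms. It had 69.5, 209, 69.8, 56.1, 91.4 and 84.4 TPM in the cold libraries and 132, 21.2, 58.8, 46.6, 25.1 and 61.7 TPM in the control libraries. Cold day 2 replicate 3 and control day 2 replicate 1 stood far above the rest of their arms. The row was not called (0.85, SE 0.42; limma, adjusted p = 0.162), and leaving out 1 library at a time moved its difference between 0.42 and 1.28.

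**Figure D4:**
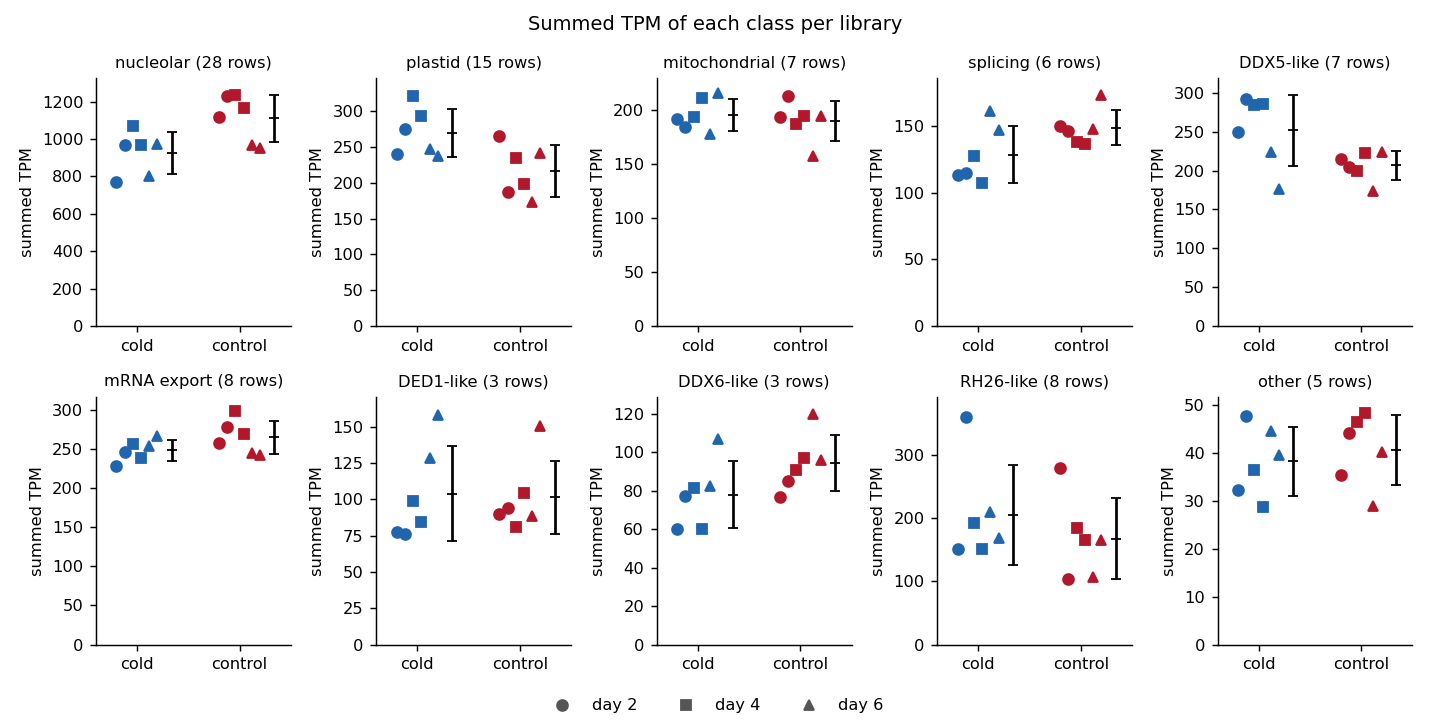
Summed TPM of the rows of each class per library, cold left and control right in every panel, with marker shape for the day and the mean and SD of the 6 libraries of an arm as a bar; each panel has its own axis starting at 0. The arms overlap in all 10 classes; the nucleolar sums were 925 TPM on average in cold and 1111 TPM in control, and the plastid sums 269.9 TPM in cold and 217 TPM in control.

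No row was called among the 3 matches related to yeast Ded1, which scans mRNA leaders in translation initiation, or the 3 related to DDX6, a factor of mRNA storage and decay in P-bodies. PL10B, the rice helicase 52B of the Ded1 group, had 34.2 and 35.2 TPM at day 2, 66.4 and 52.9 TPM at day 4, and 62.3 and 56.8 TPM at day 6 in cold calli, against 30.6 to 41.8 TPM over all control libraries. Its cold libraries were above all controls at days 4 and 6 and among them at day 2 (0.41, SE 0.15; limma, adjusted p = 0.0706). RH52 DN18242_c0_g1 had 25.3 to 89.3 TPM in cold and 39.01 to 103 TPM in control libraries, the highest of both arms at day 6 (-0.40, SE 0.20; adjusted p = 0.174). The most abundant DDX6-related row, DN34041_c1_g1 matching rice RH6, had 36.9 to 76.6 TPM in cold and 51.03 to 82.5 TPM in control libraries (-0.32, SE 0.16; adjusted p = 0.158).

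The last 5 rows matched RH1 and RH41, and none was called. The most abundant was DN25818_c0_g1, matching rice RH1, with 11.3 to 25.5 TPM in cold and 14.95 to 23.6 TPM in control libraries (-0.21, SE 0.17; limma, adjusted p = 0.381). The 208-base row DN23482_c1_g5, matching Arabidopsis RH1, was listed at 0 in 5 cold and 4 control libraries, and the others had 0.89 TPM in cold and 7.52 and 5.6 TPM in control.

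Single days gave few calls. At day 2 no helicase row was called, where the background was 1.76% (1.48% higher, 0.287% lower), 7 rows had an unadjusted p under 0.05, and the lowest adjusted p was 0.0793, for RH36 DN34215_c1_g1. At day 4 an unadjusted p under 0.05 was found in 16 helicase rows, beside 12331 of all rows. The background of calls was 8.38% (4.07% higher, 4.3% lower), and 1 helicase row was called. It was RH40 DN18764_c0_g2, which rose by 1.04 (SE 0.27, limma, adjusted p = 0.039). That call was lost without any one of the 4 day 4 libraries. At day 6 no row was called, where the background was 0.484% (0.318% higher, 0.166% lower). An unadjusted p under 0.05 was found in 10 helicase rows, beside 7824 of all rows. The lowest adjusted p was 0.135, for AIP2 DN20990_c0_g3. On each day the share of helicase rows with an unadjusted p under 0.05 was below that of all rows. Median daily differences of the family were -0.12, -0.002 and 0.03 at days 2, 4 and 6, beside 0.003, -0.16 and -0.03 over all rows.

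No row was called for unequal daily differences (background 0.0157%, 1 row with unadjusted p under 0.05), for change over days within cold calli (background 0.601%, 9 rows) or within control calli (background 0%, 1 row). All 10 rows called for the mean had the same sign on all 3 days, as had 48 of the 90 rows. The sign of the mean is built from those days, so this describes the rows and adds no evidence. Daily values differed in size, although no row was called for that: RH3 DN13578_c0_g1 stood at 0.61, 1.04 and 1.30 over days 2, 4 and 6, and AIP2 DN20990_c0_g3 at 0.18, 0.36 and 0.91. RH7 DN12088_c0_g1 stood at -1.14, -0.21 and -0.70.

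**Figure D5:**
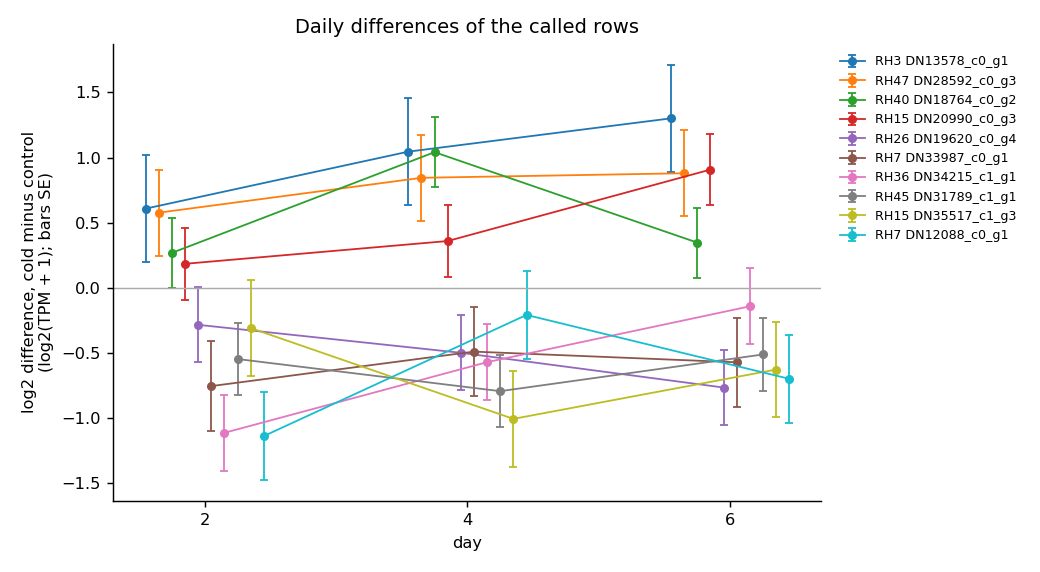
Log2 difference, cold minus control, at days 2, 4 and 6 for the 10 called rows, with standard errors; points of a day are set side by side only to keep them apart. Every row keeps its side of 0 on all 3 days.

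Genes that work beside the helicases were described from word lists on the same annotation. Ribosome assembly factors had 3 of 65 rows called higher and 2 lower (7.69%, beside 23.3% of all rows), with a median of -0.16 and 49 negative rows. IMP3, a protein of the U3 small nucleolar particle, had 13.6 ± 8.19 TPM in cold and 3.38 ± 0.82 TPM in control calli and rose by 1.56 (SE 0.23; limma, adjusted p = 0.00184). NOP5-2, a core protein of box C/D small nucleolar particles, had 57.9 ± 9.62 TPM in cold and 82.4 ± 10.04 TPM in control calli and fell by 0.51 (SE 0.16; limma, adjusted p = 0.0381).

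Translation initiation factors had 16 of 119 rows called higher and 15 lower (26.1%), near the 23.3% of all rows. The 12 eIF4A rows among them had 1 higher and 1 lower (16.7%). An eIF4A-1 row, DN21449_c0_g1, had 19.1 ± 6.18 TPM in cold and 7.26 ± 2.17 TPM in control calli (1.25, SE 0.26; limma, adjusted p = 0.00739), and an eIF4A-15 row, DN33762_c1_g3, had 197 ± 49.9 TPM in cold and 321 ± 35.8 TPM in control calli (-0.73, SE 0.19; limma, adjusted p = 0.0186). The 3 called rows of EIF(ISO)4G1, a scaffold that binds eIF4A in plants, were all higher, by 0.90, 0.84 and 0.59, and both called rows of EIF4G were lower, by -0.72 and -0.79.

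The exon junction complex list had 1 of 8 rows higher and 1 lower (25%), and the mRNA decapping list 5 of 39 higher and 2 lower (17.9%). The organelle RNA list, mostly pentatricopeptide repeat proteins, had 17 of 294 higher and 35 lower (17.7%), beside 23.3% of all rows called. Among the decapping rows XRN3, a nuclear 5′ to 3′ exoribonuclease, had 60.4 ± 16.5 TPM in cold and 32.4 ± 3.06 TPM in control calli (0.85, SE 0.15; limma, adjusted p = 0.00422). The DExH-box helicases, the sister family, had 2 of 48 rows higher and 6 lower (16.7%), with a median of -0.24. ESP3, a DEAH-type splicing helicase, had 5.15 ± 2.54 TPM in cold and 17.9 ± 4.28 TPM in control calli (-1.69, SE 0.25; limma, adjusted p = 0.00191). HEN2, a helicase of the nuclear exosome, had 13.1 ± 3.93 TPM in cold and 20.9 ± 4.09 TPM in control calli (-0.66, SE 0.20; limma, adjusted p = 0.0335).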

How the data were processed

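Total RNA of ginseng calli was sequenced in 12 libraries. The deposited table holds TPM values made by the authors, with a column for each library. No header states the unit, which was read from the values. The submitters' processing notes list cutadapt, FastQC, Salmon and edgeR, with no role, order or version. How the Trinity genes were assembled is not given in the sources used here. No read counts are held, so depth and the precision it gives are unknown.

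Samples were grouped by their titles. Of 44953 rows, 353 that reached 1 TPM in fewer than 2 libraries were left out. The others were analysed as log2(TPM + 1) with limma 3.58.1 (R 4.3.3, with version 1.17.8 of the package data.table), using a variance trend and a mean for each of the 6 groups. The plan allowed for counts or TPM, and the table held TPM. P-values were adjusted over 44600 rows by Benjamini-Hochberg at a false discovery rate of 0.05. The same model was run on rows summed by Swiss-Prot match. The scripts were tested on simulated data. Python 3.11.15 with pandas 2.3.3 and matplotlib 3.10.9 made the tables and plots.

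The helicases, lists and tests were chosen with earlier results of these data known. Classes follow the helicase number from knowledge of Arabidopsis, yeast and human relatives, and were revised after the rows were seen. Named rows are, in each class, the most abundant one, up to 3 called risers and fallers with at least 5 TPM in the higher arm, rows called at a single day, and rows sharing a match with these. Other rows are named for context, chosen after their values were seen: LOS4, RH22, RH39, RH57, PL10B, the 0-listed RH1 row, and single rows of the related lists. Alternatives were another pseudocount, other filters, 2 other scalings, a replicate block, limma without trend, array weights, summed rows and libraries left out.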

Additional observations from a re-analysis of the deposited data

Results flagged for a closer look

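In each arm of 6 libraries the highest and lowest values of the class sums and named rows were checked against their nearest neighbour by Dixon's criterion at the 95% level, 60 checks in all, of which chance flags about 1 in 20. It marked 8 values, each as a library far above the rest of its arm.

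The summed level of the RH26-related class was 360.3 TPM in cold day 2 replicate 3, where the next cold library had 209.1 TPM. RH25 DN21799_c1_g1, a row of that class, had 209 TPM in the same library, with 91.4 TPM next, and 132 TPM in control day 2 replicate 1, with 61.7 TPM next. AIP2 DN20990_c0_g3 had 49.96 TPM in cold day 6 replicate 3, with 37.1 TPM next, and RH15 DN34165_c1_g2 had 92.6 TPM in that library, with 70.5 TPM next. Control day 6 replicate 3 was high for the Ded1-related sum (150.6 TPM, next 104.6 TPM), for its member RH52 DN18242_c0_g1 (103 TPM, next 60.5 TPM) and for the splicing sum (173.8 TPM, next 150.2 TPM).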

How the results depend on the processing

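None of the 10 calls reversed direction under any of the 23 alternatives, but none kept its call under all of them. RH3 DN13578_c0_g1 and RH47 DN28592_c0_g3 kept theirs under 21. For the mean over days (4 rows higher, 6 lower), median ratio scaling gave 8 higher. Rows summed by Swiss-Prot match gave 2 higher and 2 lower, counted over 53 sums in place of 90 rows. In these fits 24% and 22.3% of all rows were called, beside 23.3% in the main fit. The fits below that left out libraries kept only 1 library in a group. Most of them also called fewer of all rows. Whether the helicases lost a larger share of their calls than other rows was not tested. Limma without a trend gave 2 lower, as did leaving out both cold day 2 replicate 3 and cold day 6 replicate 3. Leaving out 1 library gave 1 to 6 higher and 0 to 6 lower. The higher count fell to 1 without cold day 4 replicate 2 or cold day 6 replicate 2, and to 2 without cold day 2 replicate 3, control day 4 replicate 1 or control day 6 replicate 2. The lower count was 0 when cold day 4 replicate 2 was absent and 1 in the absence of cold day 2 replicate 1 or control day 4 replicate 2. It was 2 if the library left out was cold day 4 replicate 1, cold day 6 replicate 2 or control day 6 replicate 2, and 3 for control day 2 replicate 3, control day 4 replicate 1 or control day 6 replicate 3.

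At day 4 (1 higher, 0 lower), 0 were higher with limma without a trend or summed rows, array weights gave 2 higher and 6 lower, the 4 day 4 libraries alone 2 lower, and leaving out both cold libraries above 1 lower. Leaving out 1 library gave 0 to 1 higher and 0 to 1 lower at day 4, and 0 to 0 for days 2 and 6, unequal daily differences and change over days. For day 4 the share of all rows called was worked out only in the main fit. The day 4 counts of the other fits thus have no background and cannot be read as particular to the helicases. The sum of the 2 rice RH53 rows stood at 0.21 and includes DN20571_c0_g2 (0.61), so it is not a refit of DN32408_c0_g4 (-0.07). Row DN32408_c0_g4 itself reversed to 0.015 without both cold libraries. Leaving out 1 library moved it between -0.15 and 0.006, the positive value being without cold day 2 replicate 3. The cause of these shifts was not tested.

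Replicate numbers are shared between cold and control, and the labels do not say what a number marks. Deviations of same-numbered libraries from their group means had r = -0.19, 0.007 and -0.01 at days 2, 4 and 6. Each r rests on 1 pair of libraries, so it cannot decide whether a number marks a shared culture. With the number as a replicate block over days, 3 rows were higher and 4 lower for the mean and 0 higher at day 4. With day and number together as a block, 1 was higher and 1 lower for the mean, and 0 higher and 1 lower at day 4. Change over days could not be fitted. Of all rows, 19.2% were called for the mean with the number alone and 15.4% with day and number, beside 23.3% in the main fit. Of the 10 calls 7 were kept with the number alone and 1 with day and number, RH3 DN13578_c0_g1 (limma, adjusted p = 0.0332); the other 9 then had adjusted p of 0.0529 to 0.0979, and the 1 lower row was not among the 6 reported. Depth, unknown in TPM, limits what the short rows can show.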
